A study of Mus musculus with 18 samples.

Results

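Pou5f1, Nanog, Utf1, Fgf5, Pim2, Slc7a3, Tdgf1 and Zfp42 are 8 genes of the pluripotency network, taken by gene symbol from the feature lists and present in all 18 libraries as 8 of 31053 mouse genes. They were measured in whole mouse embryos at E8.5, a stage of early organogenesis at which the epiblast has been replaced by the first tissues. The data are 18 single-cell RNA-seq libraries (10x Genomics 3' v3), each labelled as a single dissociated embryo on the 129S4/SvJae background: 7 wild-type (WT), 3 labelled Dnmt1 KO, 4 labelled Dnmt3a KO and 4 labelled Dnmt3b KO, of which 2 share cell barcodes and count as 1 sample. The null alleles are constitutive and were made homozygous by mating heterozygous animals, so the mutation is present in every tissue and from fertilisation on. Genotypes were read by PCR from the ectoplacental cone, a trophoblast structure. The question asked of the members is whether a pluripotency programme that is normally shut after gastrulation is still detected in embryos without a DNA methyltransferase, and in which cells.

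Pluripotency is the capacity of the early epiblast to form every tissue of the body. Pou5f1 (the gene of OCT4) and Nanog encode transcription factors at the centre of its network, Utf1 a chromatin-associated protein and Zfp42 (REX1) a zinc finger protein that is also made by trophoblast. Fgf5 encodes a secreted growth factor of the primed, post-implantation epiblast, Tdgf1 (Cripto) a co-receptor for Nodal that is also made in the early heart, Pim2 a serine/threonine kinase and Slc7a3 a transporter of cationic amino acids. After gastrulation Pou5f1 is lost from anterior to posterior and is then kept in primordial germ cells. Dnmt1 copies methylation onto new DNA at replication, whereas Dnmt3a and Dnmt3b add new methylation, and methylation of the Pou5f1 and Nanog promoters accompanies their silencing.

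The members lie on 7 chromosomes (GRCm38, GENCODE vM21), Pou5f1 at chr17:35506018-35510772, Nanog at chr6:122707489-122714633, Utf1 at chr7:139943789-139945112, Fgf5 at chr5:98254184-98277030, Tdgf1 at chr9:110939603-110946158, Zfp42 at chr8:43295063-43306980, and Pim2 and Slc7a3 on the X chromosome at chrX:7878262-7883432 and chrX:101079210-101086020. Gm19553 is annotated antisense to Pou5f1, and Nanog, Tdgf1 and Zfp42 have annotated pseudogenes, so a part of their reads could be split between copies by the counting. RefSeq promoters (GRCm38.p6) were matched for 7 of 8 members. The stretches just upstream of the start site are shown for 5 of them, because methylation acts on the CG dinucleotide and the members differ widely in how many they carry. CG is in capitals, the strand is that of the gene, and each run ends where the annotated gene begins or at the start site, whichever comes first.
Pou5f1, chr17:35505782-35506017, plus strand: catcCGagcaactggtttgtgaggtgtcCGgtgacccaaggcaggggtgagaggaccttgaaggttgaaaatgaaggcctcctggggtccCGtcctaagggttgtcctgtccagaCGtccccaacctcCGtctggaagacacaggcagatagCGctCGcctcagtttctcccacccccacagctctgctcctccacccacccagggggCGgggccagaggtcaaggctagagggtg
Nanog, chr6:122707239-122707488, plus strand: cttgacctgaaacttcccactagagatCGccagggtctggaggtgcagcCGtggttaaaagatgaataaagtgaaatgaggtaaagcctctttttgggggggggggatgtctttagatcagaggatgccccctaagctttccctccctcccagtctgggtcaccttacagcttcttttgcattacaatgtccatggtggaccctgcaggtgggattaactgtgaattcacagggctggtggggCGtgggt
Utf1, chr7:139943606-139943788, plus strand: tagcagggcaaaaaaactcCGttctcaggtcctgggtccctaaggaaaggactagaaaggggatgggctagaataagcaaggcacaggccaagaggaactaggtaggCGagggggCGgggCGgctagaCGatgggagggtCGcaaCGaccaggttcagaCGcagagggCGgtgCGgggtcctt
Pim2, chrX:7878056-7878261, plus strand: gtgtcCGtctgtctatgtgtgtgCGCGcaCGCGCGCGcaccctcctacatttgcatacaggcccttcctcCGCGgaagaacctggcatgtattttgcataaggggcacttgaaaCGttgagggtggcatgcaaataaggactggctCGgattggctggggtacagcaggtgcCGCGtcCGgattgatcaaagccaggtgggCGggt
Zfp42, chr8:43307010-43307259, minus strand: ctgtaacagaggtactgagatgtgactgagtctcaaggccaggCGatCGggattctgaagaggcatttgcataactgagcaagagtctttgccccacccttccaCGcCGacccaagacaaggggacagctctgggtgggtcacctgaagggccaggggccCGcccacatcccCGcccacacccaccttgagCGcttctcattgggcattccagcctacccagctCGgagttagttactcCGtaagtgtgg

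Pou5f1 and Nanog each had a further RefSeq window, with 6 and 2 CG dinucleotides, and the windows shown are described here. In the 250 bases before the start site Pou5f1 had 8 CG dinucleotides, Nanog 3, Utf1 14, Fgf5 24, Pim2 22, Tdgf1 7 and Zfp42 9, against a median of 6 over 32851 mouse promoter windows of that length. Fgf5 and Pim2 were the CG-rich members, with as many or more CG in 11.98% and 14.8% of all windows, and Nanog was the poorest, with as many or more in 71.0%. The octamer ATGCAAAT or its reverse complement ATTTGCAT, the letters bound by POU factors, was found on either strand 2 times in the Pim2 window (202 and 123 bases before the start) and 1 time in the Zfp42 window (186 bases before it), as in 1.60% of all windows. A match of letters is a description of the sequence and was not tested as a binding site.

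Barcodes with at least 1500 mouse UMIs (unique molecular identifiers, 1 per captured transcript) numbered 1628 to 15427 per library and held 38742721 to 262580123 UMIs. Levels are mouse UMIs of a gene scaled to a library, or cell class, total of 1e+06 (CPM) and are compared between groups for 1 gene at a time. The targeted gene was checked first: Dnmt1 stood at 103 ± 10.4 CPM (SD, n = 7) in WT and 15.2 ± 0.379 (n = 3) in Dnmt1 KO, and Dnmt3a at 29.9 ± 3.65 in WT and 9.47 ± 1.81 (n = 4) in Dnmt3a KO. Dnmt3b was no lower in the libraries labelled Dnmt3b KO (63.2 ± 5.21 CPM) than in WT (62.5 ± 17.6), but a 3' tag outside the deleted part checks nothing. The libraries labelled Dnmt3b KO 11 and 12 also had low Dnmt3a (15.1 and 7.65 CPM, the second inside the Dnmt3a KO range of 7.59 to 11.8), so the genotype of these 2 of the 3 Dnmt3b KO samples is in doubt. Those labelled Dnmt3b KO 1 and 2 shared 12249 cell barcodes and were summed as 1 library in the tests. All Dnmt1 KO and Dnmt3a KO embryos were male by Y-linked RNA, as was 1 of 7 WT embryos (WT 2). The libraries labelled Dnmt3b KO 1, 2 and 11 were male and that labelled 12 was female. A term for male or female therefore rests on WT 2 and on Dnmt3b KO 12, whose genotype is in doubt.

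Over the whole embryo 5 of 8 members rose and 1 fell in Dnmt1 KO. Utf1, Zfp42, Nanog, Slc7a3 and Fgf5 were higher, Tdgf1 was lower, and Pou5f1 and Pim2 lay above the WT mean without passing the threshold, which asked for an adjusted p below 0.01 in edgeR's quasi-likelihood test together with an absolute log2 fold change no smaller than 1. By the same rule 14.3% of all genes tested were called in Dnmt1 KO, 8.19% higher and 6.09% lower. The median log2 fold change of the 8 members was 1.88, against 0.01 for all genes. The study itself named Pou5f1, Utf1, Slc7a3, Fgf5 and Pim2 in Dnmt1 KO from embryos that include these, so their direction is not independent evidence.

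Pou5f1 had 0.707 CPM in the lowest WT embryo, 9.81 at the median and 27.8 in the highest, and 30.1, 18.8 and 50.5 CPM in Dnmt1 KO 1, 2 and 3. WT 1 and WT 2 were the only WT embryos under 2 CPM, and 2 of 3 Dnmt1 KO embryos lay above every WT embryo. The log2 fold change was 1.77 (standard error 0.73, adjusted p = 0.0664), and 4.22 with a term for male or female (standard error 1.09, adjusted p = 0.00984), which called it. All 3 Dnmt1 KO embryos were male and 6 of 7 WT embryos were female. The term therefore rests on the male WT 2, with Pou5f1 at 1.15 CPM, and the female Dnmt3b KO 12, with 13.8 CPM. The spread between WT embryos, 10.6 ± 9.10 CPM (n = 7), came close to their mean. Nanog ran from 0.0672 to 1.17 CPM in WT (median 0.269) and stood at 1.38, 0.707 and 2.51 CPM in Dnmt1 KO, a log2 fold change of 2.21 (standard error 0.58, adjusted p = 0.00676). Its 2 highest Dnmt1 KO embryos lay above all WT embryos and the third overlapped with them. The Nanog call was close to the threshold: it was lost when WT 2, 3, 4, 5 or 6 or Dnmt1 KO 1 or 3 was left out, with an adjusted p of up to 0.0572 (without Dnmt1 KO 3).

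Utf1 changed by the largest fold of the members in the fit without a term for male or female. It stood at 1.15 CPM in the lowest WT embryo, 1.43 at the median and 5.32 in the highest (WT 2), and at 17.3, 72.2 and 21.5 CPM in Dnmt1 KO. No Dnmt1 KO embryo overlapped with WT, and the log2 fold change was 4.22 (standard error 0.45, adjusted p = 2.17e-06). Zfp42 was also highest in Dnmt1 KO 2, with 6.50, 18.4 and 5.09 CPM in Dnmt1 KO against 0.542 to 1.56 CPM in WT (median 0.739), and a log2 fold change of 3.45 (standard error 0.40, adjusted p = 4.66e-06). Without that embryo the log2 fold changes were 3.28 for Utf1 and 2.64 for Zfp42.

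Among the primed-epiblast and metabolic members, Slc7a3 separated the groups completely. It stood at 8.06, 4.72 and 13.6 CPM in Dnmt1 KO and at 1.11 to 3.995 CPM in WT (median 2.43), a log2 fold change of 1.90 (standard error 0.31, adjusted p = 0.000142). Fgf5 had 1.59, 0.664 and 2.56 CPM in Dnmt1 KO and 0.166 to 1.11 CPM in WT (median 0.389). Its log2 fold change was 1.85 (standard error 0.42, adjusted p = 0.00249), with Dnmt1 KO 2 inside the WT range, and the call was lost without Dnmt1 KO 3 (1.29, adjusted p = 0.0317). Pim2 had 11.9, 8.42 and 23.1 CPM in Dnmt1 KO and 1.85 to 13.9 CPM in WT (median 5.16), and its log2 fold change of 1.42 (standard error 0.41) just missed the threshold at an adjusted p of 0.0114. WT 7 was the 1 WT embryo above 7 CPM, and without it Pim2 was called (1.76, adjusted p = 0.000569).

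Tdgf1 went the other way. It stood at 0.716, 0.252 and 1.48 CPM in Dnmt1 KO, each below the lowest WT embryo, and at 1.67 to 4.34 CPM in WT (median 2.98), so that its log2 fold change was -1.77 (standard error 0.43, adjusted p = 0.00372). The call was lost without Dnmt1 KO 1 (adjusted p = 0.0245) or Dnmt1 KO 2 (adjusted p = 0.0194). In all, 3 members had every Dnmt1 KO embryo above every WT embryo (Utf1, Slc7a3 and Zfp42) and 1 had every one below (Tdgf1), which holds for 10.4% and 17.6% of all genes tested. Because the sums run over whole embryos, a change in the number of cells of a type and a change in the RNA per cell cannot be told apart in them.

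**Figure D1:**
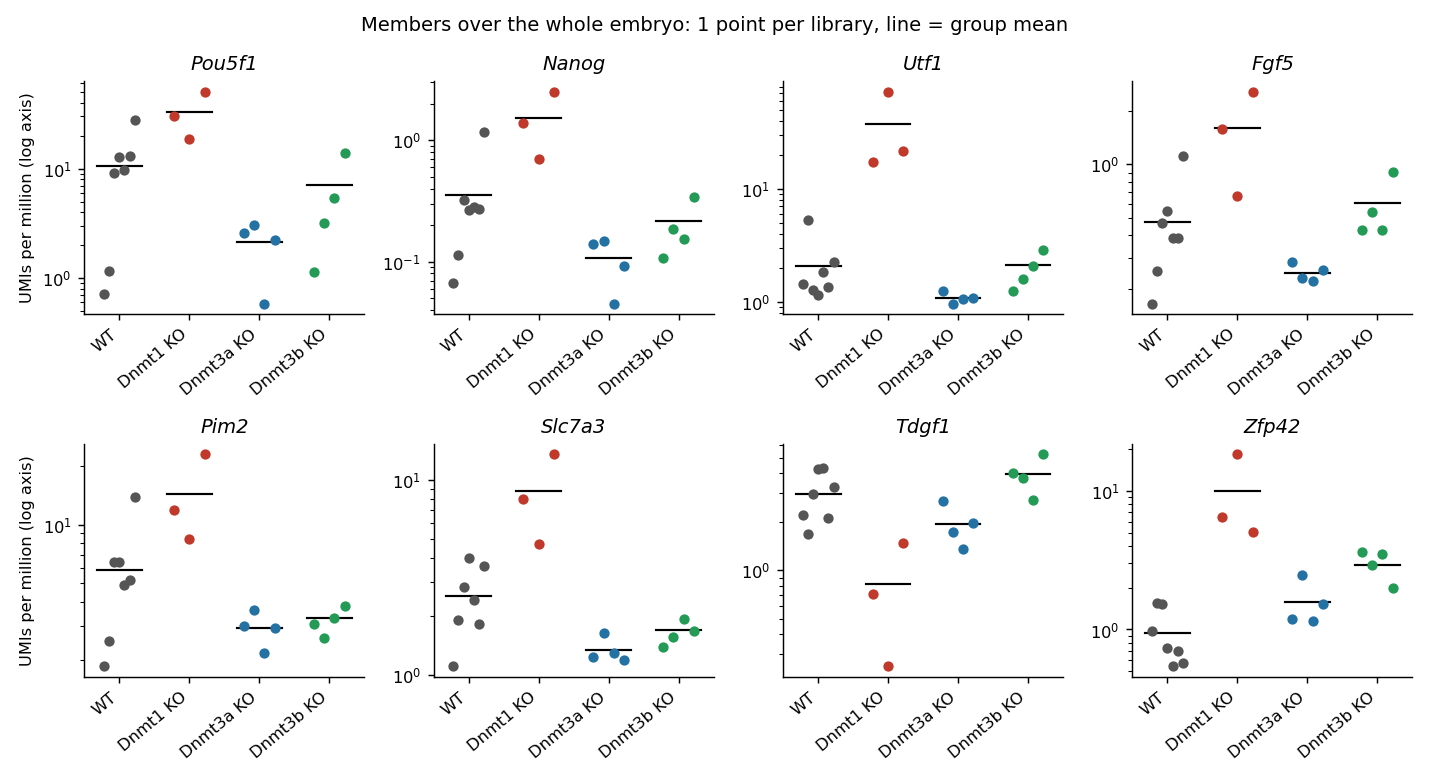
Levels of the 8 members over the whole embryo, in CPM on a log axis, with 1 point per library in each of the 4 groups and a line at the group mean. Utf1, Zfp42 and Slc7a3 lie above every WT embryo in all 3 Dnmt1 KO embryos, Tdgf1 lies below, and Pou5f1 spreads from 0.707 to 27.8 CPM among WT embryos.

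In Dnmt3a KO no member was called (0 of 8, against 0.207% of all genes, edgeR), and DESeq2 also called 0. At an unadjusted p under 0.05, 6 of 8 members were lower (Pou5f1, Nanog, Utf1, Fgf5, Pim2 and Slc7a3), against 3.82% of all genes. All 4 embryos were male and 6 of 7 WT embryos were female, and with a term for male or female Utf1 alone of the 6 stayed under that p (log2 fold change -1.58, adjusted p = 0.284) and the Pou5f1 value turned to 0.13. WT 2, the 1 male WT embryo, had the highest Utf1 level in WT (5.32 CPM). In its filtered cells 759 of 920 Utf1 UMIs lay in trophoblast-like cells (the ExE ectoderm-like class below). Without such cells in any library, and without that term, the Utf1 value was -0.37 (adjusted p = 0.681, edgeR). Pou5f1 stood at 2.56, 3.05, 0.583 and 2.24 CPM in Dnmt3a KO 1, 2, 13 and 14, each below the WT median, with a log2 fold change of -2.32 (standard error 0.79, adjusted p = 0.300). Utf1 was tight in this group, at 1.09 ± 0.116 CPM (n = 4), with 3 of 4 embryos just below the lowest WT embryo. The log2 fold changes of the other members were -1.75 for Nanog, -0.99 for Pim2, -0.94 for Fgf5, -0.91 for Slc7a3, -0.62 for Tdgf1 and 0.69 for Zfp42, with adjusted p-values of 0.300 or more.

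In Dnmt3b KO no member was called over the whole embryo either (0 of 8, against 1.86% of all genes, edgeR), and the 1 member at an unadjusted p under 0.05 was Zfp42 (higher, as for 10.6% of all genes). It stood at 3.63, 2.93, 3.48 and 2.002 CPM in the libraries labelled Dnmt3b KO 1, 2, 11 and 12, all above the highest WT embryo (1.56 CPM). With Dnmt3b KO 1 and 2 summed (3.26 CPM) the same held for 5.74% of all genes. Its log2 fold change was 1.56 (standard error 0.40, adjusted p = 0.0356), and DESeq2 called it (adjusted p = 0.00496). Pou5f1 ranged from 1.13 to 13.8 CPM in the same libraries and overlapped with WT throughout (log2 fold change -0.58, standard error 0.80, adjusted p = 0.748). Dnmt3a KO, Dnmt3b KO and Dnmt1 KO were all compared with the same 7 WT embryos.

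The other genes of the pluripotency network did not move as a block in Dnmt1 KO. Over all genes 8.19% rose and 6.09% fell. Of 10 core factors and their partners, 3 rose (Dppa4 by a log2 fold change of 4.36, Dppa2 by 2.50 and L1td1 by 1.57) and 1 fell: Sox2, a transcription factor that pairs with OCT4 and is also made by the neural plate, stood at 9.54 to 22.4 CPM against 33.2 to 69.5 in WT (log2 fold change -1.59). The median over that list was 0.05. Of 14 genes of the naive, pre-implantation state that could be tested, 9 rose and none fell by edgeR's test. They were led by Nr0b1 (1.2 to 3.17 CPM against 0.0127 to 0.0788 in WT), Dppa5a (16.4 to 27.6 against 1.52 to 2.92), Gdf3 and Esrrb, and the median of the list was 1.34. Nr0b1 was near 0 in WT and could hardly have come out lower. The sums run over whole embryos, so the make-up of cells enters these rises. The Esrrb value changed sign when extraembryonic ectoderm, extraembryonic endoderm, unnamed and germ cells, defined below, were left out. Of 12 genes of the primed or formative state 0 rose and 4 fell: Foxd3 (0.0289 to 0.0465 CPM against 2.54 to 7.82), Dusp6, Etv4 and Sox3, with log2 fold changes of -6.98, -1.59, -1.37 and -1.33 and a list median of -1.33. Foxd3 and Sox3 are also made by neural crest and neural plate, and Dusp6 and Etv4 respond to FGF signalling. None of 15 housekeeping genes was called in any of the 3 comparisons (median -0.08 in Dnmt1 KO).

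Dppa2 and Dppa4, which encode a pair of chromatin proteins of the early embryo, also moved in the other mutants. Dppa2 rose in Dnmt3a KO (0.834 to 1.57 CPM against 0.232 to 0.456 in WT, log2 fold change 1.71, adjusted p = 0.00854) and in Dnmt3b KO (log2 fold change 2.05, adjusted p = 0.000456). Dppa4 rose in Dnmt3b KO (1.68 to 10.1 CPM against 0.0516 to 1.14 in WT, log2 fold change 3.73, adjusted p = 0.00184). So did Dppa5a of the naive list (6.47 to 9.11 CPM, log2 fold change 1.87, adjusted p = 3.75e-05). No other gene of the 3 lists was called in Dnmt3a KO or Dnmt3b KO.

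To see which cells held the members, cells were clustered without the members and the other pluripotency genes, and without Y-linked genes and Xist, and clusters were named from marker genes. A class is called by the tissue its markers resemble, for example gut-like. In WT embryos Pou5f1 was highest in the caudal and neural classes. It stood at 38.8 ± 33.6 CPM (SD, n = 7) in NMP-like cells (neuromesodermal progenitors of the tail end), 30.4 ± 25.7 in hindbrain/spinal cord-like cells and 19.0 ± 14.5 in presomitic mesoderm-like cells. Forebrain/midbrain-like, intermediate mesoderm-like, surface ectoderm-like and neural crest-like cells followed, at 13.7, 13.5, 12.95 and 11.1 CPM, and somitic mesoderm-like, head mesenchyme-like and allantois-like cells at 7.03, 5.83 and 4.10. The head mesenchyme-like class joined cluster 4 (1373 WT cells, Pou5f1 at 7.35 CPM) and cluster 28 (786 WT cells, 2.71 CPM). Cluster 4 scored 2.09 for head mesenchyme and 1.90 for intermediate mesoderm. Its leading genes held markers of both, Lhx1 and Osr1 beside Prrx1 and Alx1, so its name is uncertain. The lowest classes with all 7 embryos were gut-like (1.29), cardiomyocyte-like (1.21), erythroid-like (0.764) and extraembryonic (ExE) endoderm-like cells (0.365 ± 0.212). Set against each other within embryos, NMP-like cells lay above hindbrain/spinal cord-like cells, these above presomitic mesoderm-like cells, neural crest-like above somitic mesoderm-like and erythroid-like above ExE endoderm-like cells in 7 of 7 embryos. Forebrain/midbrain-like, intermediate mesoderm-like, surface ectoderm-like and neural crest-like cells were not ordered the same way in all embryos, each lying above the next in 3 or 4 of 7. The order was set by these same values, so the counts are a description.

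The spread between WT embryos was mostly shared by the classes. In NMP-like cells Pou5f1 stood at 2.82, 6.29, 39.0, 42.1, 29.1, 48.9 and 104 CPM in WT 1 to 7, the same low pair and the same highest embryo as over the whole embryo. In Dnmt3a KO it stood at 2.35 to 13.9 CPM there and in Dnmt3b KO at 5.48 to 73.4. The 5 genes whose mean over 19 WT classes was most like that of Pou5f1, among 10364 genes, were Nrxn2 (Pearson r = 0.924), Stmn2 (0.918), Soga3 (0.904), Hira (0.903) and Ric3 (0.898). The classes share libraries and depth, so these coefficients are a description.

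Each of the other members had a WT pattern of its own. Pim2 was highest in forebrain/midbrain-like cells (31.9 ± 17.1 CPM) and Slc7a3 in hindbrain/spinal cord-like cells (8.76 ± 5.02), and over 19 classes they went with Pou5f1 at r = 0.60 and 0.74. Fgf5 was highest in surface ectoderm-like cells (3.49 ± 2.38) and Nanog in forebrain/midbrain-like cells (1.11 ± 1.34). The Nanog value rested on WT 7, which gave 68 of its 110 UMIs, and was 0.619 ± 0.376 without that embryo. Neural crest-like cells came first for Nanog when WT 3, 5 or 6 was left out. Utf1 stood at 253 CPM and Zfp42 at 46.2 CPM in the ExE ectoderm-like cells of WT 2, the trophoblast class, of which no other WT embryo had enough cells. Outside that class Utf1 was highest in surface ectoderm-like cells (8.91 ± 2.34) and Zfp42 in ExE endoderm-like cells (4.49 ± 1.83), the yolk sac endoderm class. Tdgf1 was a gene of the heart at this stage: it stood at 143 ± 47.1 CPM in cardiomyocyte-like cells (89.5 to 210), 6.38 ± 3.25 (n = 6) in pharyngeal mesoderm-like cells, and 0.665 or less in each other class. The level in cardiomyocyte-like cells was 125 ± 3.97 CPM in Dnmt3a KO and 135 ± 24.2 in Dnmt3b KO.

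**Figure D2:**
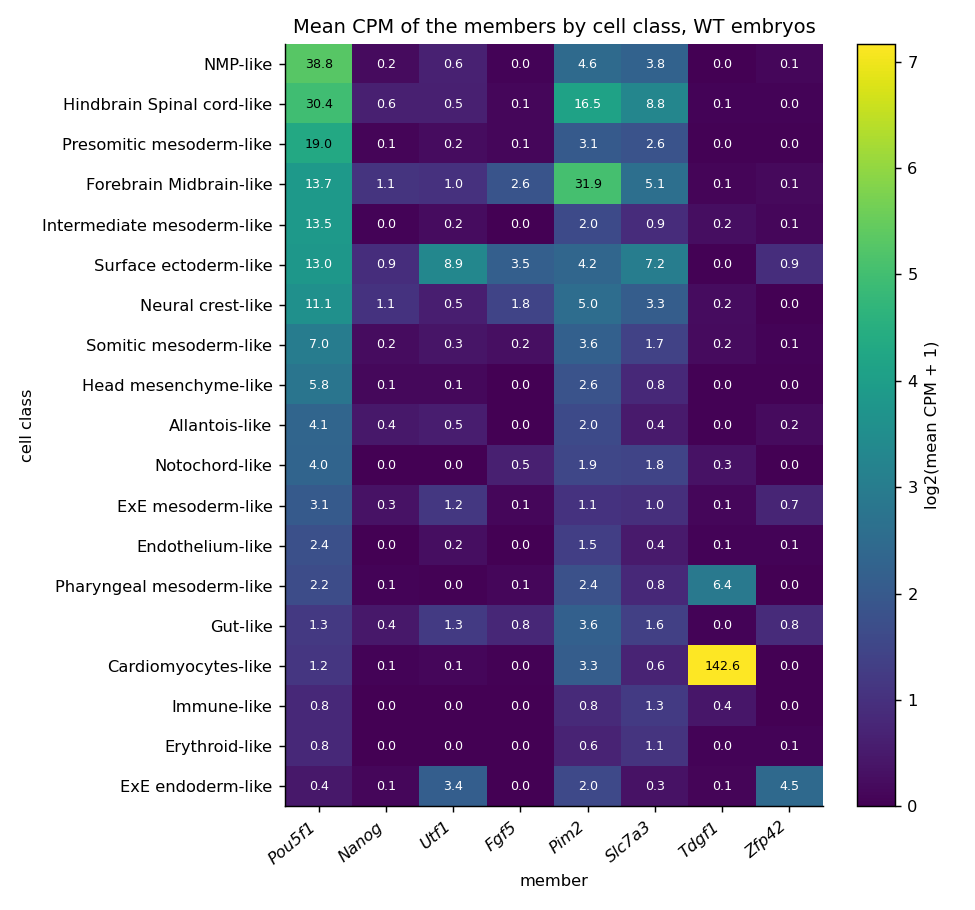
Mean CPM of the 8 members (columns) in 19 cell classes of WT embryos (rows, ordered by Pou5f1), with the value printed in each cell and the colour showing log2(mean CPM + 1). Pou5f1 falls from 38.8 in NMP-like cells to 0.365 in ExE endoderm-like cells, and Tdgf1 stands at 143 CPM in cardiomyocyte-like cells and under 7 elsewhere.

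The Dnmt1 KO embryos had a different make-up of cells. Cardiomyocyte-like cells numbered 1, 0 and 0 in the 3 embryos, forebrain/midbrain-like, hindbrain/spinal cord-like and neural crest-like cells 0 in each, and NMP-like cells 5, 9 and 0. The neural and NMP markers were still detected. In Dnmt1 KO they summed to 14.1 to 43.9 CPM for forebrain/midbrain (42.2 to 113 in WT) and 51.1 to 98.7 for hindbrain/spinal cord (95.7 to 161). For neural crest they summed to 10.4 to 14.5 (29.3 to 39.1) and for NMP to 85.4 to 129 (122 to 315). A class count of 0 therefore does not show that a tissue was absent. The summed level of the 9 cardiomyocyte markers over kept cells was 111 to 387 CPM in Dnmt1 KO and 680 to 1326 in WT, beside the fall of Tdgf1. ExE ectoderm-like cells numbered 82, 950 and 113 in Dnmt1 KO, against 125 in WT 2, 0 or 1 in each other WT embryo, 0 to 2 in Dnmt3a KO and 1 to 13 in Dnmt3b KO. The 9 markers of that class summed to 102 to 364 CPM in Dnmt1 KO, 55.9 to 71.3 in WT, 59.3 to 80.2 in Dnmt3a KO and 67.8 to 78.6 in Dnmt3b KO, with none at 0 in any library. A further 18.5% to 57.7% of the kept Dnmt1 KO cells fell in clusters that the markers did not name.

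The members separated into sets by the Dnmt1 KO cells that held them. Cluster 20 held 243, 278 and 285 cells of Dnmt1 KO 1, 2 and 3, which is 9.10% to 16.6% of their cells, and 59.5% to 72.5% of their Pou5f1 UMIs. It also held 76.5% to 90.3% of the UMIs of Nanog, 69.3% to 80.3% of Fgf5, 60.9% to 75.9% of Pim2 and 50.3% to 69.6% of Slc7a3, but 2.37% to 29.7% of Utf1, 0.411% to 2.69% of Zfp42 and 0% to 2.94% of Tdgf1. Pou5f1 stood at 141, 161 and 153 CPM in it, close to each other in the 3 embryos. Cluster 20 was led by Phlda3, Wnt8a, Cdx1 and Stmn2. Of its cells in the clustered sample 95.0% came from Dnmt1 KO, and the name that its marker scores favoured (germ cells) went against its leading genes, so it was left unnamed. The marker lists held no epiblast class, so no cluster could be named as one. From embryos that include these, the study reports more caudal epiblast in Dnmt1 KO. It also reports a minor delay, with E8.0 as the closest stage. The part of stage in the member levels was not tested. Cluster 26, led by Mesp1, held another 15.9% to 27.6% of Pou5f1 and 24.7% to 47.1% of the few Tdgf1 UMIs.

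Utf1 and Zfp42 were held by the extraembryonic classes. ExE ectoderm-like cells were 4.43% to 31.1% of the Dnmt1 KO cells and held 60.1% to 95.8% of Utf1 and 51.4% to 83.5% of Zfp42 UMIs, and ExE endoderm-like cells a further 11.98% to 44.5% of Zfp42. Within ExE ectoderm-like cells Utf1 stood at 206, 195 and 178 CPM and Zfp42 at 48.7, 43.4 and 54.0 CPM in Dnmt1 KO, beside 253 and 46.2 CPM in the 1 WT embryo with enough of these cells. With 1 WT embryo there is no test of that difference.

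**Figure D3:**
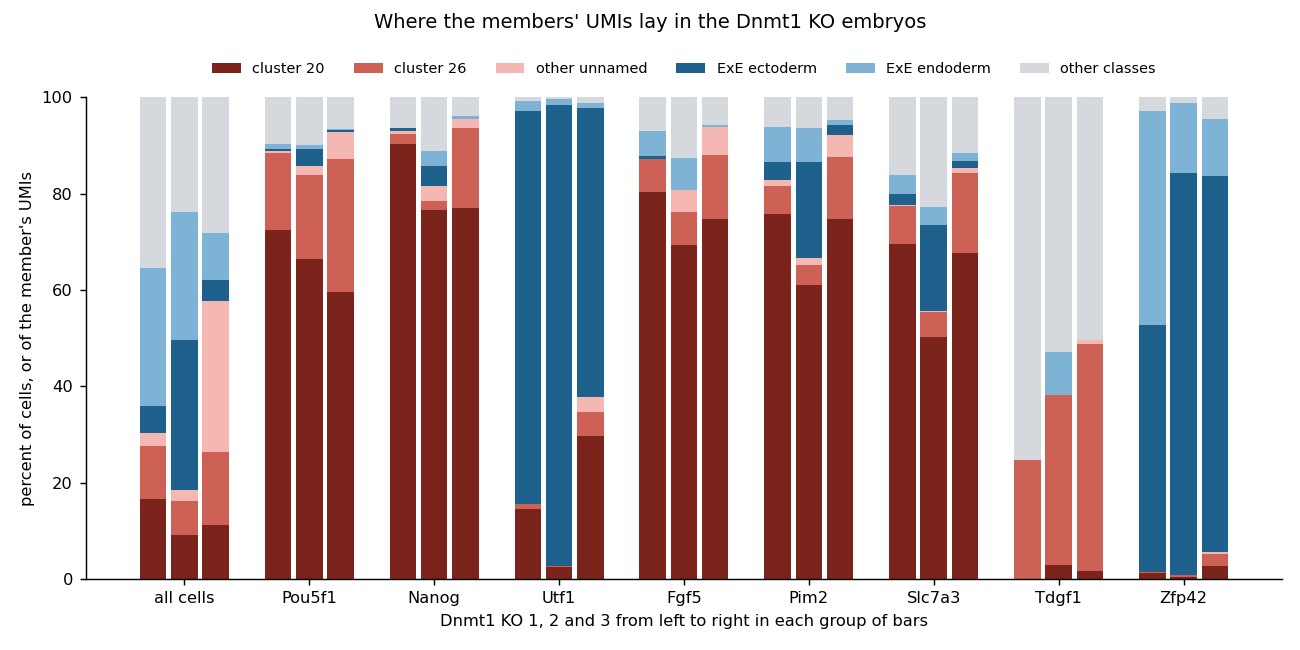
Percent of kept cells (first bar) and of each member's UMIs (other bars) that lie in cluster 20, cluster 26, the other unnamed clusters, ExE ectoderm-like, ExE endoderm-like and all other cells, for Dnmt1 KO 1, 2 and 3. Cluster 20 carries over 50% of Pou5f1, Nanog, Fgf5, Pim2 and Slc7a3 in each embryo, and ExE ectoderm-like cells over 50% of Utf1 and Zfp42.

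The whole-embryo comparison was also made without these cells. Because the sets left out hold most of some members' UMIs, the drop in fold restates where the UMIs lie. Without the ExE ectoderm-like cells, Utf1 had a log2 fold change of 2.18 and Zfp42 of 1.91 in Dnmt1 KO, down from 4.22 and 3.45, and 7 of 8 members were called, Pim2 now among them (1.55) and Pou5f1 not (2.02, adjusted p = 0.0383). Over all genes 2584 of 18747 were called in that setting. Without the unnamed cells, 3 of 8 were called: Utf1 (4.51), Zfp42 (3.88) and Tdgf1 (-1.78), beside 4139 of 18703 genes tested. Pou5f1, Nanog, Fgf5 and Pim2 then had log2 fold changes of -0.84, -0.76, -0.90 and -0.70, which did not pass the test, and Slc7a3 one of 0.37. Without ExE ectoderm-like, ExE endoderm-like, unnamed and germ gate cells (the last being cells with at least 3 of 5 germ cell genes), Zfp42 was the 1 member called, and Utf1 had a log2 fold change of -0.02. In Dnmt3b KO, Zfp42 was called without the ExE ectoderm-like cells (1.74, adjusted p = 0.00664).

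**Figure D4:**
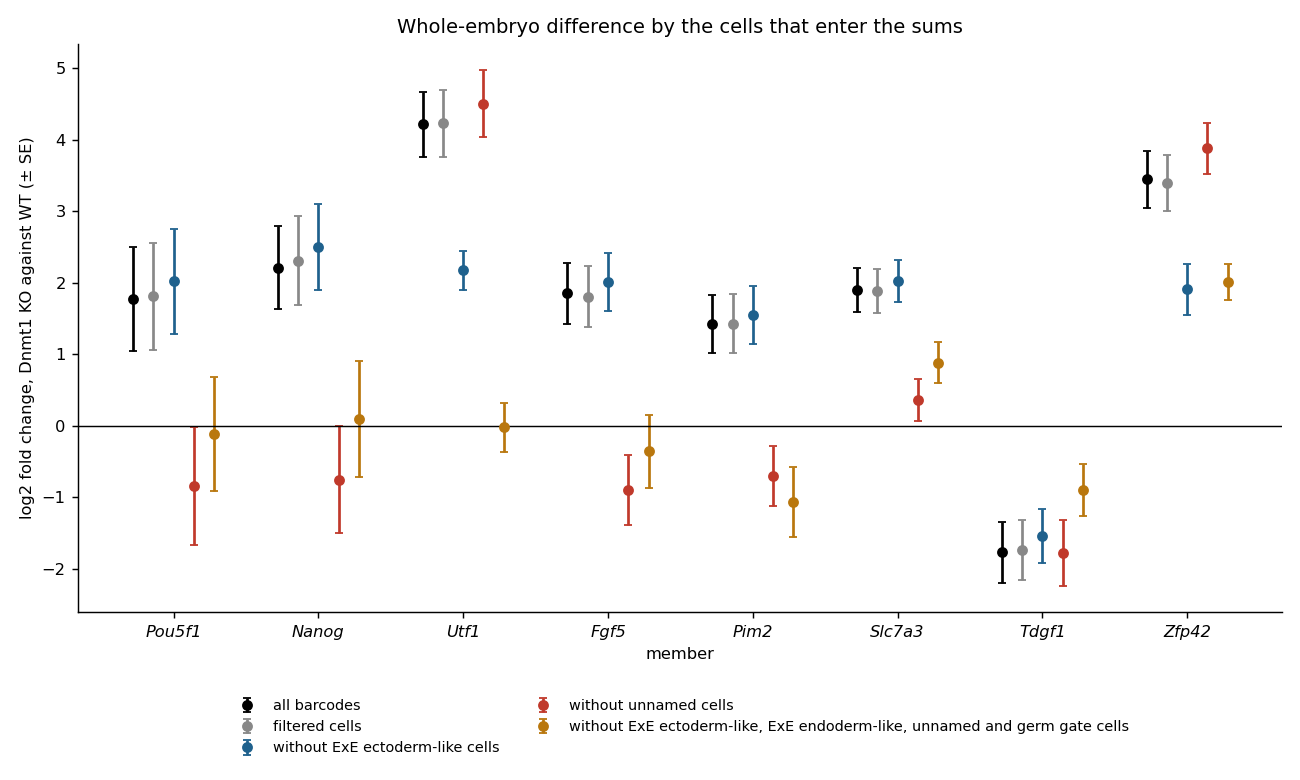
Log2 fold change of each member in Dnmt1 KO against WT, with bars of ± 1 SE, from sums over all barcodes and over sums that leave out named sets of cells. Pou5f1, Nanog, Fgf5 and Pim2 pass below 0 when the unnamed cells are left out, while Utf1 and Zfp42 drop when the ExE ectoderm-like cells are.

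Cells that passed a gate for primordial germ cells were few. They numbered 52 in Dnmt1 KO, 23 in WT, 24 in Dnmt3a KO and 18 in Dnmt3b KO, and held 4.33% of the Pou5f1 UMIs of Dnmt1 KO (427 of 9862) and 2.44% of those of WT (302 of 12361). A Pou5f1 UMI was found in 49 of the 52 Dnmt1 KO cells and 17 of the 23 WT cells, but in 6 of 24 in Dnmt3a KO and 5 of 18 in Dnmt3b KO, so the gate did not take like cells in each group. The 5 germ cell genes summed to 12.9 to 15.9 CPM in Dnmt1 KO and 4.65 to 9.10 in WT. For Nanog the shares were 6.26% and 9.09%. Cells were pooled over the embryos of a group in these values. WT 7 gave 11 of the 23 WT gate cells, all 11 with a Pou5f1 UMI. It also gave most of the Pou5f1 and Nanog UMIs of the WT gate. The gate cells of WT 1 and WT 2 had no Pou5f1 UMI, and WT 5 had no gate cell. The WT shares therefore rest largely on WT 7. The gate asks for several sparse genes at once, so germ cells of low depth can be missed by it.

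Within a named class the level is no longer set by how many cells of that class an embryo has. Of the classes, 5 had at least 25 cells in at least 3 Dnmt1 KO and 3 WT embryos, and 19 pairs of a member and a class had enough UMIs to be tested. In Dnmt1 KO 10 of 19 pairs were called, all higher, against 7.66% of all gene and class pairs tested in either direction. Among the 10, Slc7a3 in immune-like cells entered the test through its Dnmt1 KO counts alone and could only come out higher. The largest cluster differed between Dnmt1 KO and WT in 2 of the classes, being cluster 21 (82.0%) against cluster 23 (37.3%) for ExE mesoderm-like cells and cluster 10 (69.5%) against cluster 0 (50.1%) for ExE endoderm-like cells. It was the same, with unequal shares, for endothelium-like cells (cluster 13, 76.8% against 52.2%) and gut-like cells (cluster 27, 83.8% against 35.5%), and immune-like cells were a single cluster.

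Pou5f1 rose in 3 of the 4 classes in which it could be tested. In endothelium-like cells it stood at 16.4, 21.0 and 15.8 CPM in Dnmt1 KO and 0.131 to 4.22 CPM in WT, a log2 fold change of 2.97 (standard error 0.56, adjusted p = 0.000557; 3.62% of genes rose in this class). In ExE mesoderm-like cells it stood at 11.3, 11.6 and 13.9 CPM against 0.203 to 6.43 (log2 fold change 2.13, standard error 0.53, adjusted p = 0.00361; 5.24% of genes rose). In gut-like cells it stood at 14.9, 4.12 and 10.4 CPM against 0.287 to 3.50 (log2 fold change 2.94, standard error 0.52, adjusted p = 0.000326; 4.39% of genes rose). In these 3 classes no Dnmt1 KO embryo overlapped with WT, including Dnmt1 KO 2 in gut-like cells with 7 Pou5f1 UMIs. How many of all genes do the same in these classes was not counted. The endothelial call kept an adjusted p of at most 0.00442 when any library was left out, the gut call was lost without Dnmt1 KO 1 (2.54, adjusted p = 0.0121), and the ExE mesoderm call was lost without Dnmt1 KO 1, 2 or 3 (adjusted p = 0.0113, 0.0113 and 0.0201). In ExE endoderm-like cells the Dnmt1 KO level was 0.519 to 1.61 CPM and did not pass the test (1.13, adjusted p = 0.133).

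Free RNA from broken cells can place a few UMIs in cells that do not make a gene. In the same 3 Dnmt1 KO libraries Pou5f1 stood at 0.519 to 1.61 CPM in ExE endoderm-like cells and 1.92 to 3.05 CPM in ExE ectoderm-like cells, below every endothelium-like, ExE mesoderm-like and gut-like value. In immune-like cells it stood at 2.33 to 4.68 CPM, a range that holds the gut-like value of Dnmt1 KO 2. The erythroid-like cells of these embryos, 10, 9 and 70 in number, had 3, 0 and 2 Pou5f1 UMIs (6.97, 0 and 4.22 CPM), too few for an estimate. For each 100 UMIs of Pou5f1 there were 39.7 to 57.3 of Pim2 in cluster 20, 11.5 to 18.2 in endothelium-like cells, 15.4 to 20.6 in ExE mesoderm-like cells, 40.6 to 84.2 in immune-like cells, 61.3 to 171 in gut-like cells and 192 to 381 in the ExE endoderm-like and ExE ectoderm-like cells. The endothelium-like ratio rests on 3 to 4 Pim2 UMIs per library. The part of free RNA in the class levels was not tested.

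Slc7a3 rose in 3 of 4 classes. In ExE mesoderm-like cells it stood at 3.55, 3.04 and 4.57 CPM against 0.454 to 1.42 in WT (log2 fold change 2.10, standard error 0.29, adjusted p = 1.74e-05), a call that held with every library left out in turn. In immune-like cells, the macrophage-lineage class, it stood at 6.14, 8.59 and 8.83 CPM against 0 to 3.36 in the 3 WT embryos with enough cells, where it rested on 5 UMIs (log2 fold change 2.89, standard error 0.68, adjusted p = 0.00924; 2.5% of genes rose in this class). This pair passed the low-count filter through its Dnmt1 KO counts alone, so its direction was set in advance and the call carries no weight of its own. In ExE endoderm-like cells it stood at 0.798, 0.568 and 2.42 CPM against 0.0883 to 0.495 (log2 fold change 2.0045, standard error 0.50, adjusted p = 0.00674; 3.54% of genes rose). The last 2 calls were near the threshold: the immune call was lost without WT 1 (adjusted p = 0.0668) or WT 2 (0.0521), Dnmt1 KO 1 (0.0261), Dnmt3a KO 1 or 14, or Dnmt3b KO 11 or 12, and the ExE endoderm call when 1 of WT 1, 4, 5, 6 and 7 or of Dnmt1 KO 1 and 3 was left out (adjusted p of 0.0107 to 0.0682). In gut-like cells Slc7a3 missed the threshold at an adjusted p of 0.0103 (log2 fold change 1.27, standard error 0.34).

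Pim2 rose in 2 of 4 classes, gut-like and ExE mesoderm-like cells. In gut-like cells it stood at 9.13, 7.06 and 8.87 CPM against 2.08 to 4.74 in WT (log2 fold change 1.29, standard error 0.24, adjusted p = 0.000546), and in ExE mesoderm-like cells at 1.74, 2.38 and 2.79 CPM against 0.564 to 1.53 (log2 fold change 1.14, standard error 0.26, adjusted p = 0.00226). The second call was lost without Dnmt1 KO 2 (adjusted p = 0.0108) or Dnmt1 KO 3 (0.0256). Pim2 was not called in endothelium-like (log2 fold change 0.77, adjusted p = 0.325) or ExE endoderm-like cells (0.24, adjusted p = 0.389). Fgf5 and Zfp42 rose in gut-like cells. Fgf5 stood at 3.36, 1.77 and 3.65 CPM on 17 UMIs against 0.0957 to 1.55 (log2 fold change 2.06, standard error 0.54, adjusted p = 0.00832), and the call was lost when 1 of Dnmt1 KO 1, 2 and 3, WT 1, 4, 5, 6 and 7, Dnmt3a KO 1 and 14 or the summed Dnmt3b KO 1 and 2 was left out (adjusted p of up to 0.0621, without Dnmt1 KO 3). Zfp42 stood at 4.81, 4.12 and 3.13 CPM on 23 UMIs against 0.347 to 1.44 (log2 fold change 2.31, standard error 0.46, adjusted p = 0.00101), and was lost without Dnmt1 KO 1 (adjusted p = 0.0155). The gut-like cells of Dnmt1 KO numbered 30, 41 and 39.

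Utf1, the member with the largest whole-embryo fold in the fit without a term for male or female, was not called in any class tested. The classes tested leave out the cells that held most of its Dnmt1 KO UMIs. These were the ExE ectoderm-like cells (60.1% to 95.8%) and the unnamed clusters (2.66% to 37.8%). In cluster 20 Utf1 stood at 23.5 CPM over the 806 Dnmt1 KO cells, which was not tested against WT. In the classes tested the Utf1 log2 fold changes in Dnmt1 KO were -0.80 in ExE endoderm-like, -0.94 in ExE mesoderm-like and -0.40 in gut-like cells, with adjusted p-values of 0.171, 0.211 and 0.721. In ExE endoderm-like cells it stood at 0.871 to 2.77 CPM in Dnmt1 KO and 1.58 to 5.58 in WT. Zfp42 likewise was not called in ExE endoderm-like (0.76, adjusted p = 0.0551) or ExE mesoderm-like cells (-0.72, adjusted p = 0.215). In the classes with enough cells, Nanog and Tdgf1 had too few UMIs to be tested in Dnmt1 KO. The classes highest for Tdgf1 in WT had too few Dnmt1 KO cells: cardiomyocyte-like (1, 0 and 0) and pharyngeal mesoderm-like (23, 1 and 6). In cluster 16, the pharyngeal mesoderm-like cluster, Tdgf1 stood at 33.5 CPM over 30 Dnmt1 KO cells and 6.57 CPM over 772 WT cells. This is opposite to its whole-embryo fall. Most of these Dnmt1 KO cells came from Dnmt1 KO 1, and the difference was not tested. Cluster 16 scored nearly alike for pharyngeal mesoderm (2.41) and cardiomyocytes (2.30), and Tdgf1 stood at 143 CPM in WT cardiomyocyte-like cells. The part of heart cells in its Tdgf1 level was not tested.

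In the mutants of the de novo enzymes, with the doubt on the labels of Dnmt3b KO 11 and 12 kept in mind, the classes gave 1 call in all. None of 61 pairs was called in Dnmt3a KO (0.112% of all gene and class pairs), and 1 of 61 in Dnmt3b KO (0.67%), Zfp42 in ExE endoderm-like cells. Zfp42 stood there at 13.2 to 20.8 CPM in Dnmt3b KO (17.4 ± 3.65, n = 3), above every WT embryo (1.85 to 6.71), every Dnmt3a KO embryo (8.59 ± 1.51, n = 4) and every Dnmt1 KO embryo (7.59 ± 1.104, n = 3). The log2 fold change against WT was 1.88 (standard error 0.27, adjusted p = 0.000258; 1.15% of genes rose in this class). The call held when any 1 library was left out, with adjusted p-values of at most 0.00281, and it was lost without both of the libraries labelled Dnmt3b KO 11 and 12 (2.03, adjusted p = 0.0164). In Dnmt3a KO the same gene and class gave 0.88 (adjusted p = 0.0750).

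**Figure D5:**
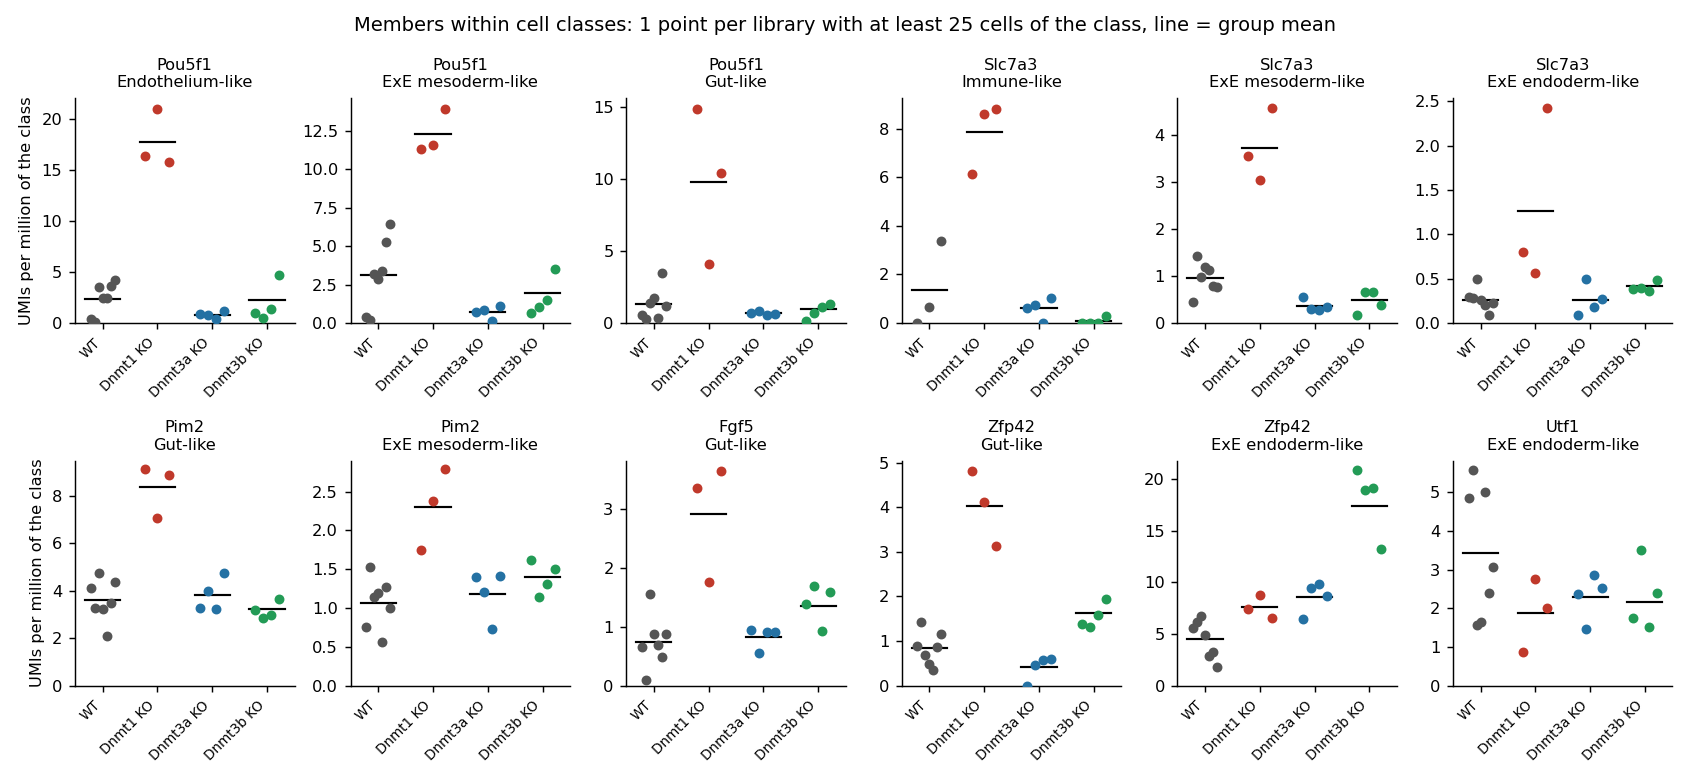
Levels in CPM of 12 pairs of a member and a cell class, with 1 point per library of at least 25 cells for each of the 4 groups, on linear axes. Pou5f1 in endothelium-like cells lies at 15.8 to 21.0 CPM in Dnmt1 KO and at 4.22 or less in WT, and Zfp42 in ExE endoderm-like cells is highest in Dnmt3b KO.

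In single cells the members were sparse, and depth differed between libraries (median UMIs per kept cell 4451.5 to 59714), so each cell was thinned to 1500 UMIs before shares were compared. A Pou5f1 UMI was found in 4.98% ± 2.25 of Dnmt1 KO cells (3.05% to 7.45%) and 1.42% ± 1.24 of WT cells (0.119% to 3.66%). For Utf1 the shares were 4.27% ± 3.45 and 0.322% ± 0.234, and for Slc7a3 0.969% ± 0.163 and 0.298% ± 0.119. In exact two-sided permutation tests over embryos Utf1, Slc7a3 and Nanog reached p = 0.0167, the smallest that 3 against 7 embryos can give, Pou5f1, Zfp42 and Tdgf1 (lower) p = 0.0333, Pim2 p = 0.1 and Fgf5 p = 0.217. Adjusted over 24 tests the lowest p was 0.1. With so few embryos this correction leaves little room to pass, and it does not show that the shares were alike. The Utf1 shares (2.25% to 8.25% against 0.149% to 0.820%) and the Nanog and Slc7a3 shares did not overlap between the groups. How many of all genes do the same in shares was not counted. In whole-embryo CPM 10.4% of genes had every Dnmt1 KO embryo above every WT embryo. In erythroid-like cells, the class taken as background for Pou5f1 and Pim2, 1 of 4803 WT cells (0.0208%) had a Pou5f1 UMI after thinning and 6 a Pim2 UMI (0.125%). WT erythroid-like cells are not free of Pou5f1 (0.764 CPM, above ExE endoderm-like cells), and the 89 of Dnmt1 KO are too few to set a background: 0 had a Pou5f1 UMI after thinning, which allows up to 3.37%, above the lowest Dnmt1 KO share. Slc7a3 has no such background here, since WT erythroid-like cells held it at 1.09 ± 0.407 CPM, above several other classes. Median depth was 12195 to 68743 UMIs in the WT erythroid-like cells and 6792.5 to 57681.5 in all WT cells.

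Several members were found in the same Dnmt1 KO cells. At 1500 UMIs per cell 1.097% ± 0.570 of Dnmt1 KO cells had 2 or more of the 8 members, 82 of 7068 cells, and 0.0946% ± 0.0819 of WT cells, 27 of 34421. At 5000 UMIs, with shallower cells left out, the shares were 8.29% ± 2.43 (462 of 5500 cells) and 0.804% ± 0.983 (180 of 27731), with 0.160% ± 0.0910 in Dnmt3a KO and 0.529% ± 0.480 in Dnmt3b KO. Unthinned, they were 31.6% and 11.4%. The lowest Dnmt1 KO embryo (5.75% at 5000 UMIs) lay above the highest WT embryo (WT 7, 2.96%), without which the WT share was 0.444% ± 0.269 (n = 6).

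Members held by the same clusters met more often in the same cells. At 5000 UMIs Pou5f1 and Pim2 met in 131 Dnmt1 KO cells where 47.6 would be counted if each were spread independently within its library, Pou5f1 and Slc7a3 in 86 (29.4), Pim2 and Slc7a3 in 49 (13.04) and Nanog and Pim2 in 20 (2.55). Without Dnmt1 KO 3 the first 3 of these counts were 71 (19.2), 51 (14.7) and 29 (6.77). Utf1 and Zfp42 met in 131 cells (46.0), of which 111 were from Dnmt1 KO 2, and in 20 (2.96) without that embryo. Pairs across the sets went both ways. Pou5f1 and Zfp42 met in 4 cells (27.6) and Pim2 and Zfp42 in 6 (13.1), whereas Utf1 met Pim2 in 44 (36.4) and Fgf5 in 9 (5.13). Much of the count for Pou5f1 and Zfp42 was from Dnmt1 KO 2, without which they met in 2 cells (8.66). Pou5f1 and Utf1 met in 51 cells where 77.5 would be counted, a deficit that came from Dnmt1 KO 2 (17 against 47.7), and without that embryo they met in 34 (29.8). Within cell classes the odds ratios moved towards 1: from 3.52 to 7.95 down to 1.43 to 2.17 for Pou5f1 with Pim2, and from 5.10 to 13.5 down to 1.14 to 2.04 for Utf1 with Zfp42, over the 3 embryos. For Pou5f1 with Utf1 they were 0.292 to 1.37 over all cells and 1.205 to 1.99 within classes. For Pou5f1 with Zfp42 they were 0.111 to 0.493 over all cells and 0.678 to 1.79 within classes, on 4 cells with both. In WT embryos Pou5f1 and Pim2 met in 82 cells (44.1), 42 of them in WT 7, and in 40 (20.8) without it. Within classes the WT odds ratio of that pair was 0.905 to 1.73 over the 5 embryos with any such cell. Pou5f1 and Slc7a3 met in 27 WT cells (14.4), or 17 (11.5) without WT 6, and Pou5f1 and Utf1 in 8 (7.76), or 5 (4.71) without WT 7. Cells of 1 embryo are not replicates, so these counts are given without a test.

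The sexes of the groups differed beside these results. A term for them rests on WT 2, the 1 male WT embryo, and Dnmt3b KO 12, the 1 female mutant, so it is a weak adjustment. With the term for male or female in the whole-embryo fit, Tdgf1 was not called in Dnmt1 KO (log2 fold change -1.12, adjusted p = 0.128). The values were then 3.61 for Utf1, 3.51 for Nanog, 2.73 for Zfp42, 2.67 for Fgf5 and 2.04 for Slc7a3, all called, and 2.15 for Pim2, which was not. By class, 6 of the 10 calls remained. The calls lost were Slc7a3 in ExE endoderm-like (adjusted p = 0.0965) and immune-like cells (0.0438), Pim2 in ExE mesoderm-like cells (0.0603) and Zfp42 in gut-like cells (0.0134).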

How the data were processed

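Single E8.5 embryos were profiled by 10x Genomics 3' v3 single-cell RNA-seq, 18 libraries grouped by the labels (7 WT and 3, 4 and 4 knockouts of Dnmt1, Dnmt3a and Dnmt3b). The deposited matrices hold raw UMI counts per gene and barcode, made by the authors with Cell Ranger (3.1.0 in 17 matrix headers and 5.0.0 in that of Dnmt3b KO 12). In 4 libraries (Dnmt3b KO 11, Dnmt3a KO 1 and 13, WT 1) the reference also held human genes, which were left out. Columns of per-sample values left out numbered 0.

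Barcodes with at least 1500 mouse UMIs were kept. For whole-embryo comparisons their counts were summed per library and tested with edgeR 4.0.16 (quasi-likelihood, TMM, 1 model over the 4 groups, filterByExpr, Benjamini-Hochberg over all genes), called at an adjusted p under 0.01 and an absolute log2 fold change of at least 1. Dnmt3b KO 1 and 2 share barcodes and were summed. For classes, cells above 30% mitochondrial or 35% ribosomal protein UMIs and doublets called by Scrublet were removed, up to 1500 cells per library were clustered with scanpy 1.11.5 (2500 variable genes, 50 components, 30 neighbours, Leiden resolution 2, 47 clusters), and 42 clusters were named from 167 markers into 21 classes. Members, the other pluripotency lists, Y-linked genes, Xist, the Dnmt genes and mitochondrial and ribosomal protein genes took no part in clustering. Class sums of at least 25 cells in at least 3 embryos per group were tested in the same way. A free-RNA correction was not applied. Shares of cells were taken after thinning to 1500 UMIs, with exact permutation tests over embryos (SciPy 1.17.1). Depth limits the class results: some rest on under 30 UMIs, and intervals and zero limits cover counting error only. The tests were run on simulated counts of known fold change before use.

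The 8 members and the other lists were chosen with earlier results of these data known. Named genes were the members, the targeted genes, up to 4 called genes per other pluripotency list and direction, and the 5 genes most like Pou5f1 over WT classes with at least 10 CPM in 1 class; clusters and their leading genes were named after their values were seen. Replicates are separate embryos by the labels, except that Dnmt3b KO 1 and 2 cannot be taken as such. Alternatives were DESeq2 1.42.0, other size factors, no filter, terms for sex, reference and replicate number, thinned sums, other cell filters, and each library left out in turn. Promoter sequences are from RefSeq (GRCm38.p6).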

Additional observations from a re-analysis of the deposited data

Results flagged for a closer look

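Of 34 groups of 7 (WT) or 4 (Dnmt3a KO) values tested for 1 sample far from the others, 9 were flagged, and chance flags about 1 in 20. Dnmt1 KO and Dnmt3b KO were not tested in this way. WT 7 stood apart for Nanog (1.17 CPM over the whole embryo, next 0.321), Fgf5 (1.11 CPM, next 0.547), Pim2 (13.9 CPM, next 6.41), the share of cells with a Pim2 UMI (1.80%, next 0.8001%) and the share of cells with 2 or more members (0.266%, next 0.116%). WT 2, the WT embryo with 125 ExE ectoderm-like cells, stood apart for Utf1, at 5.32 CPM (next 2.25) and 0.820% of cells (next 0.399%). In Dnmt3a KO, embryo 14 was low in the share of cells with a Utf1 UMI (0.134%, next 0.190%) and embryo 2 high in that with a Slc7a3 UMI (0.283%, next 0.150%).

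Some members had every embryo of a mutant on opposite sides of the WT mean in 2 cell classes, and these differences between classes were not tested. In Dnmt1 KO, Zfp42 had a log2 fold change of 2.31 in gut-like and -0.72 in ExE mesoderm-like cells. In Dnmt3a KO, Slc7a3 had 0.38 in erythroid-like and -1.66 in hindbrain/spinal cord-like cells, and Zfp42 0.88 in ExE endoderm-like and -0.99 in gut-like cells. In Dnmt3b KO, Pim2 had 0.31 in ExE mesoderm-like and -1.26 in hindbrain/spinal cord-like cells, and Slc7a3 0.51 in ExE endoderm-like and -2.54 in immune-like cells.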

How the results depend on the processing

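Over the whole embryo, 1199 of the alternative values kept their direction and side of the threshold, 60 lost a call, 11 gained one and 49 changed sign. Of 24 share tests, 0 passed an adjusted p of 0.05 under each alternative, a level that 3 against 7 embryos can hardly reach. Depth and the number of embryos limit the class results. The cause of the changes below was not tested.

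Members called in Dnmt1 KO numbered 6 (beside 2695 of 18870 genes), and 3 without unnamed cells (beside 4139 of 18703 genes), 1 without ExE, unnamed and germ gate cells, and 4 to 7 with 1 library left out. In Dnmt3b KO the count of 0 became 1 (Zfp42) with DESeq2, without ExE ectoderm-like cells and without ExE, unnamed and germ gate cells. By class, the 10 Dnmt1 KO calls became 6 with a male or female term, 4 with a replicate block, 3 of 6 pairs tested after thinning to the smallest library, 4 of 10 with at least 50 cells, and 4 to 11 with 1 library left out (4 without Dnmt1 KO 1, 6 without Dnmt1 KO 2 or 3). The Dnmt3a KO count of 0 became 1 (Tdgf1 in pharyngeal mesoderm-like cells) with DESeq2 or no filter. The Dnmt3b KO count of 1 became 0 with a replicate block or without Dnmt3b KO 11 and 12, and ranged from 1 to 2 with 1 library left out (2 without Dnmt3b KO 1 and 2).

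Values that changed sign are log2 fold changes over the whole embryo unless stated. In Dnmt1 KO without unnamed cells they were -0.70 for Pim2, -0.90 for Fgf5, -0.76 for Nanog and -0.84 for Pou5f1, and without ExE, unnamed and germ gate cells -1.07 for Pim2, -0.36 for Fgf5, -0.024 for Utf1, -0.11 for Pou5f1 and -0.65 for Esrrb. With a male or female term they were -0.030 for Zfp42, 0.035 for Tdgf1 and 0.13 for Pou5f1 in Dnmt3a KO, and 0.79 for Pou5f1 and 0.18 for Dnmt3b in Dnmt3b KO. Without Dnmt3b KO 11 and 12 they were -0.040 for Fgf5 and 0.042 for Dnmt3a. In Dnmt3b KO, Utf1 (-0.03) became 0.029 in filtered cells, 0.076 without unnamed cells, 0.39 without ExE ectoderm-like cells and 0.82 without ExE, unnamed and germ gate cells, 0.23 without Dnmt3b KO 1 and 2, and -0.24 to 0.46 with 1 library left out. Fgf5 ran from -0.037 to 0.71 with 1 library left out, without Dnmt3b KO 12 and WT 7 at the ends. Dnmt3b in Dnmt3b KO, near 0 in all, was 0.0063 with DESeq2 and with its size factors, 0.027 with no filter, 0.073 with a reference term, 0.030 thinned, 0.0026 in filtered cells, 0.0052 without ExE ectoderm-like cells, 0.10 without Dnmt3b KO 1 and 2, and -0.083 to 0.11 with 1 library left out. Differences in the share of cells changed sign for Utf1 in Dnmt3b KO at 5000 UMIs (0.251 percentage points), Fgf5 in Dnmt3b KO unthinned (-0.208) and Tdgf1 in Dnmt1 KO unthinned (0.602).

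Replicate numbers are shared by the labels but do not pair the embryos: the deviations of same-numbered libraries correlated at -0.445 to 0.444 over 13 pairs, and 0 of 3 Dnmt1 KO libraries correlated best with the WT library of its number. With the replicate block, calls over all genes over the whole embryo numbered 1414 in place of 2695 for Dnmt1 KO, 1 in place of 39 for Dnmt3a KO and 5 in place of 351 for Dnmt3b KO. The block gave Pim2 0.50, Fgf5 0.26, Nanog 0.53, Tdgf1 0.28 and Pou5f1 1.13 in Dnmt3a KO, and Pim2 0.16, Nanog 0.45, Pou5f1 0.55, Dnmt3b 0.30 and Dnmt3a 0.15 in Dnmt3b KO, all opposite in sign to the fit without it. In Dnmt1 KO it added Pou5f1 and Pim2 to the calls and dropped Tdgf1.

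Calls over all genes in the whole embryo otherwise moved by over 1.5 times in Dnmt1 KO without unnamed cells (4139), in Dnmt3a KO with DESeq2 (110), a male or female term (59), thinned sums (22), without Dnmt3b KO 11 and 12 (77) and without ExE, unnamed and germ gate cells (63), and in Dnmt3b KO with thinned sums (189) and without Dnmt3b KO 11 and 12 (87). Co-detection of 2 or more members at 5000 UMIs was 0.804% for WT embryos (0.444% without WT 7) and 8.29%, 0.160% and 0.529% for the Dnmt1, Dnmt3a and Dnmt3b mutants. Within cell classes, at 1500 UMIs, the mean log2 odds ratio in Dnmt1 KO went from 2.09 to 0.70 for Pou5f1 and Pim2, 2.66 to 1.61 for Pou5f1 and Slc7a3, 2.75 to 0.078 for Utf1 and Zfp42, and -0.57 to 0.66 for Pou5f1 and Utf1. At 5000 UMIs the same pairs went from 2.31 to 0.90, 2.36 to 1.11, 3.23 to 0.49 and -0.54 to 0.62.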

Other observations

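Some values belong to no comparison above. Cluster 20, which held most of the Pou5f1 UMIs of Dnmt1 KO, also had 68 cells in Dnmt3b KO, with Pou5f1 at 42.7 CPM and Pim2 at 4.50 CPM there, against 150 and 70.6 CPM over the 806 Dnmt1 KO cells. Utf1 in gut-like cells stood at 3.87 ± 2.05 CPM in Dnmt3b KO (n = 3; 2.21 to 6.23) and 1.32 ± 0.777 in WT (n = 7; 0.292 to 2.16), groups that do not overlap in CPM, and was not called. The share of all genes without overlap in that class was not counted. Tdgf1 in pharyngeal mesoderm-like cells stood at 1.27 ± 1.18 CPM in Dnmt3a KO (n = 4) (0.353 to 2.93) and 6.38 ± 3.25 in WT (n = 6; 1.66 to 10.3), ranges that overlap, and was not called by edgeR (adjusted p = 0.153). Dnmt3b, which has its highest levels in the epiblast, stood at 110 ± 13.7 CPM in Dnmt1 KO, with a log2 fold change of 0.92 (standard error 0.17, adjusted p = 0.000524, edgeR) that is under the fold required for a call.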
